A study of Mus musculus with 8 samples.

Results

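The genes described here move iron into cells, store it, let it out again or sense it. The list held 10 mouse genes: the uptake and transport genes Tfrc, Slc11a1, Slc11a2 and Slc25a37, the storage genes Fth1, Ftl1 and Ncoa4, the exporter Slc40a1, and the regulators Aco1 and Ireb2. A gene was measured through probe sets that the platform annotation ties to exactly 1 gene symbol, and where a gene had several, the brightest over all 8 arrays was taken. This gave 8 of the 10 genes, out of 17097 genes in all. Ireb2 was not analysed here, and Slc11a2 has no value of its own because both of its probe sets are shared with Gm5475. The 8 arrays hold RNA of acute myeloid leukaemia (AML) lines from mice. The first 4 are labelled Trib1 hi, for a line that expresses Hoxa9 and Trib1, and the other 4 are labelled Trib1 null, for a line that expresses Hoxa9 without Trib1. Hoxa9 is a homeobox transcription factor, and Trib1 is a pseudokinase that leads C/EBP alpha to degradation. Per the labels, the leukaemia arose in animals with both Trib1 copies knocked out, all cells were grown in IMDM with serum and IL-3, none were treated, and no promoter, clone number or separate culture is named. The comparison asks how Hoxa9-driven cells with Trib1 differ from those without it, and its p-values measure only the spread between these arrays, which may be technical. Each label stands for a single line, so an effect of Trib1 cannot be told apart from any other difference between the lines.

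Most cells take up iron bound to transferrin, which the transferrin receptor carries into endosomes. Iron that is not used for haem or iron-sulphur clusters is held inside ferritin, a shell of heavy and light chains, and ferroportin is the known route by which iron leaves a cell. Iron regulatory proteins bind stem-loops, called iron-responsive elements, in the mRNAs of ferritin, ferroportin and the transferrin receptor. They act on mRNA stability and translation, so that ferritin protein can change while ferritin mRNA does not. In myeloid cells the pathway serves both proliferation and the recycling of iron from ingested red cells.

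The promoters of the ferritin chains are shown because the ferritin shell is the store of iron and the calls of both chains changed between settings. Both chains, like Ncoa4, were called higher with array Trib1 hi 3 left out. With that array kept, the chains were called only after quantile normalization, and Ncoa4 was not called. The stretches are the 150 bases just before a transcription start listed by RefSeq on build GRCm38.p6, and capitals mark ATTGG, which reads CCAAT on the opposite strand. The Fth1 stretch, chr19:9982496-9982645 on the plus strand, belongs to the second of its 2 listed starts. The Ftl1 stretch, chr7:45459887-45460036, is on the minus strand.
Fth1: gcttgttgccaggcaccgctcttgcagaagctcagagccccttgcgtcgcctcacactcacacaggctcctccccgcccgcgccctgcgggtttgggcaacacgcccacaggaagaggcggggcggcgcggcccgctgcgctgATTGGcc
Ftl1: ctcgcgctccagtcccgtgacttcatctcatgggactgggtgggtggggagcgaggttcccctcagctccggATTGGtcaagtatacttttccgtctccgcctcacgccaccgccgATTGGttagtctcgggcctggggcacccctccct
The Fth1 stretch held 1 copy of CCAAT on either strand and the Ftl1 stretch held 2. In windows of 250 bases before the start, 7 of the 10 genes had an entry, with 11 windows. CCAAT was present in 3 of the 11 windows (1 each of Tfrc, Fth1 and Ftl1), against 33.9% of 32851 windows of that length over the genome. GGGCGG was present in 6 of the 11 (32.7% of all windows), TATAA in 3 (22.8%), and TGACNNNGC in 1, of Ncoa4 (10.2%). Each was searched on both strands, and none of the 4 motifs contains another. A match is a description of the letters and not a binding site.

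The arrays and their labels were checked first. The Trib1 signal was 7.13, 7.13, 122 and 5.92 on arrays labelled Trib1 hi, against 304, 223, 212 and 206 on those labelled Trib1 null, an order opposite to the labels and below 500 on every array. Hoxa9 read 10.0 to 391 on Trib1 hi arrays and 969 to 1075 on Trib1 null arrays, although both lines are described as expressing it. Whether these probe sets could detect the transgenes, or whether the group labels are exchanged, was not tested, and exchanged labels would turn every direction given here. Directions are those of the arrays labelled Trib1 hi against those labelled Trib1 null. Arrays Trib1 hi 3 and Trib1 null 1 had the highest background of their groups and are called the high-background arrays below. A background control probe set read 379 on Trib1 hi 3, against 11.4 to 15.1 on the other Trib1 hi arrays. It read 335 on Trib1 null 1 and 149 to 264 on the other Trib1 null arrays, all far above Trib1 hi 1, 2 and 4. Signals in that range could not be compared between arrays, so folds use signals raised to 500, a fold with one group partly or wholly below 500 is a lower bound, and no fold is given where both groups have arrays below 500. Trib1 itself read below the background control on every array but Trib1 null 2, and the part of the background in its order was not tested. Hoxa9 lay near the control on the Trib1 hi arrays and above it on the Trib1 null arrays. Of the markers of myeloid leukaemia cells, 8 of 10 reached 500 on all Trib1 hi arrays and 9 of 10 on all Trib1 null arrays, whereas all 8 measured erythroid markers stayed below 500 on every array, with summed levels of 56.4 to 859 in Trib1 hi and 73.5 to 446 in Trib1 null.

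Among the 8 measured iron genes, none rose and 2 fell on the Trib1 hi arrays: the exporter Slc40a1 and the regulator Aco1. The other 6 did not pass the test. All 8 had passed the filter on low values. In the same limma fit, 11.1% of 12250 tested genes rose and 19.7% fell, so 2 of 8 is near the background. At an unadjusted p under 0.05 the counts were again 0 higher and 2 lower. The share of all genes at that threshold is not given here, so these counts cannot be judged against it. The median log2 difference of the 8 genes was -0.03, beside 0.04 over all tested genes. The groups did not overlap for 1 of the 8 genes, Slc40a1, whereas they did not overlap for 29.3% of tested genes. Of the 8 genes, 5 (Tfrc, Fth1, Ftl1, Ncoa4 and Slc25a37) were at 500 or above on every array. None of these 5 was called, while 25.9% of the 4465 genes that bright were called higher and 25.8% lower.

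The calls for the bright genes depended on the arrays used. All 5 of them had their lowest Trib1 hi value on array Trib1 hi 3 and their lowest Trib1 null value on array Trib1 null 1. With Trib1 hi 3 left out, 3 of the 8 genes rose (Fth1, Ftl1 and Ncoa4) and 2 fell, against 17.1% of all genes higher and 31.0% lower, and the median difference of all genes moved to -0.33. With both arrays left out, a setting chosen after the data were seen, the same 3 genes rose and 3 fell (Slc40a1, Aco1 and Slc25a37), against 21.8% and 32.0% of all genes. In either setting the Trib1 hi arrays left read 11.4 to 15.1 on the background control, and the Trib1 null arrays 149 or more. Background then goes with the group, so these settings cannot part the 2. After quantile normalization, which forces the 8 arrays to one distribution, 2 rose (Fth1 and Ftl1) and 5 fell (Tfrc, Slc11a1, Slc25a37, Slc40a1 and Aco1), against 27.3% and 27.5%.

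**Figure D1:**
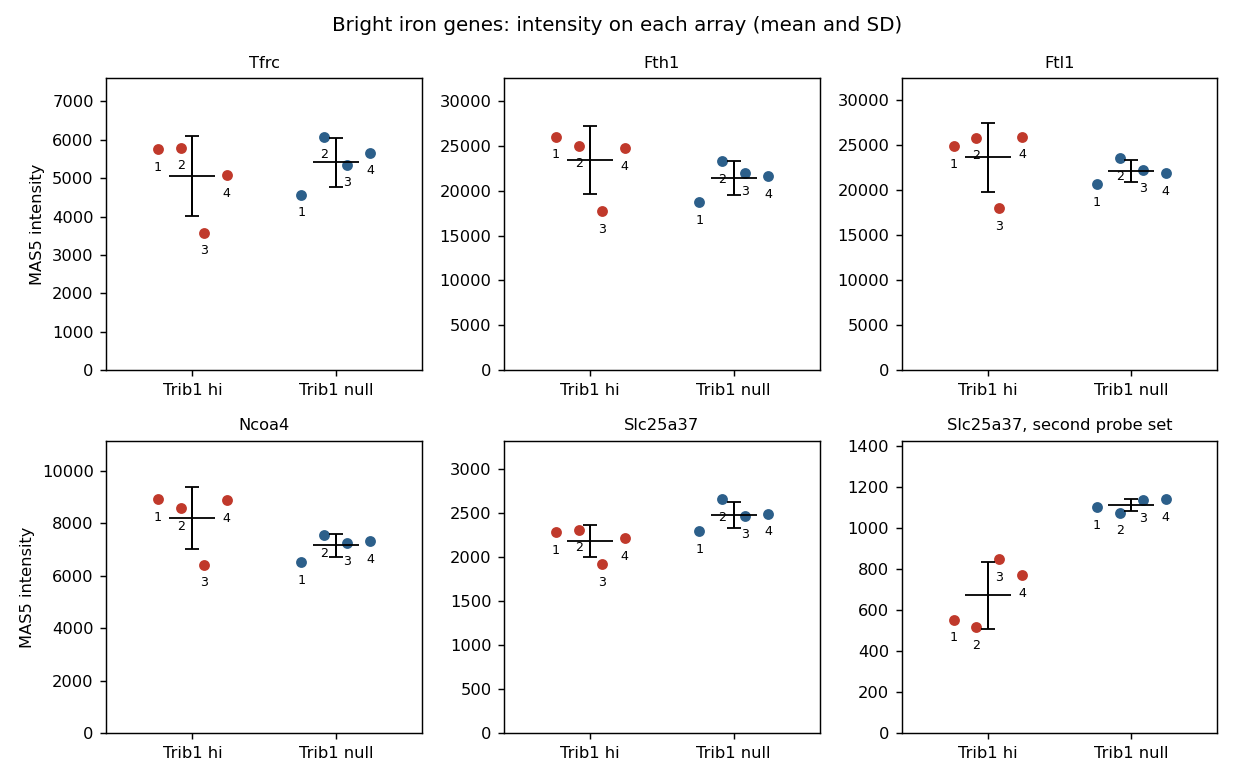
MAS5 intensity (linear axis from 0) of the 5 bright iron genes and of a second Slc25a37 probe set, with Trib1 hi arrays in red and Trib1 null arrays in blue, numbered by replicate, and bars giving the mean and SD of 4 arrays. For the 5 genes the groups overlap and arrays Trib1 hi 3 and Trib1 null 1 are lowest, whereas the second Slc25a37 probe set lies at 516 to 847 on Trib1 hi arrays and 1075 to 1140 on Trib1 null arrays.

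Tfrc encodes transferrin receptor 1, the main entry route for transferrin-bound iron. It read 5755, 5801, 3585 and 5084 on the Trib1 hi arrays, against 4574, 6080, 5357 and 5664 on the Trib1 null arrays. The groups overlapped, with Trib1 hi 3 the lowest of all 8. The means were 5056 ± 1034 in Trib1 hi and 5419 ± 637 in Trib1 null (SD, n = 4 each), a log2 difference of -0.12 with a 95% interval of -0.36 to 0.13 (limma, adjusted p = 0.549). The difference was 0.04 without Trib1 hi 3 (adjusted p = 0.764) and -0.04 without both Trib1 hi 3 and Trib1 null 1 (adjusted p = 0.633). Its sign thus changed with the arrays used. Quantile normalization gave -0.23 (adjusted p = 0.00666), and the mean of all Tfrc probe sets -0.84 (adjusted p = 0.469). The other Tfrc probe sets were dim, at 4.75 to 334 on Trib1 hi arrays and 4.18 to 347 on Trib1 null arrays.

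Slc11a1, the NRAMP1 metal transporter of phagosome membranes, read 5.22, 4.32, 60.3 and 4.21 on Trib1 hi arrays, against 33.3, 5.75, 5.97 and 5.01 on Trib1 null arrays. The high value of each group was on the array with the highest background in that group. It was below 500 throughout, and its log2 difference was 0.06 with an interval of -2.12 to 2.25 (adjusted p = 0.979), which spans both directions. Slc11a2, the transporter DMT1 that passes iron out of endosomes, could be seen only through the 2 probe sets shared with Gm5475. Those read 4.26 to 274 on Trib1 hi arrays and 3.10 to 113 on Trib1 null arrays, below 500 on each.

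Slc25a37 encodes mitoferrin 1, which brings iron into mitochondria. Its brightest probe set read 2281, 2307, 1913 and 2212 on Trib1 hi arrays, against 2287, 2650, 2458 and 2489 on Trib1 null arrays. The groups overlapped by a small margin, since Trib1 hi 2 lay just above Trib1 null 1. The means of 2178 ± 181 in Trib1 hi and 2471 ± 149 in Trib1 null (SD, n = 4 each) gave a log2 difference of -0.18 with an interval of -0.38 to 0.01 (adjusted p = 0.162). Without both high-background arrays the difference was -0.16 (adjusted p = 0.0279) and after quantile normalization -0.22 (adjusted p = 0.000463). Averaging its probe sets, dim ones included, gave -1.34 (adjusted p = 0.0213).

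A second Slc25a37 probe set separated the groups fully. It read 552, 516, 847 and 769 on Trib1 hi arrays, against 1103, 1075, 1137 and 1140 on Trib1 null arrays. Here Trib1 hi 3 was the highest of its group and still below every Trib1 null array. The means were 671 ± 162 in Trib1 hi and 1114 ± 30.6 in Trib1 null, 1.70-fold lower in Trib1 hi, with a log2 difference of -0.76 and an interval of -1.09 to -0.43 (limma over all single-symbol probe sets, adjusted p = 0.000666). The difference was -0.88 without Trib1 hi 3 (adjusted p = 0.000881), -0.89 without both high-background arrays (adjusted p = 0.00232) and -0.49 after quantile normalization (adjusted p = 5.37e-05). In the same intensity range the added control transcript dap also read lower on Trib1 hi arrays: its dimmest non-overlapping probe set averaged 610 in Trib1 hi and 1073 in Trib1 null, a log2 difference of -0.84. The 4 probe sets of another added control, bioC, averaged 709 to 1054 in Trib1 hi and 691 to 1322 in Trib1 null, with log2 differences of -0.34, -0.33, -0.02 and 0.20 and overlapping groups. The controls of this range thus differed from each other, and the part of the dap difference in the Slc25a37 result was not tested. The remaining Slc25a37 probe set was dim, at 10.3 to 349 in Trib1 hi and 201 to 375 in Trib1 null, and was also called lower (log2 difference -3.07, adjusted p = 0.0419).

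Fth1, the ferritin heavy chain that oxidises iron for storage, read 25993, 24997, 17745 and 24737 on Trib1 hi arrays, against 18709.6, 23286, 21963 and 21618 on Trib1 null arrays. Arrays Trib1 hi 1, 2 and 4 lay above every Trib1 null array and Trib1 hi 3 lay below them all. The means were 23368 ± 3788 in Trib1 hi and 21394 ± 1929 in Trib1 null (SD, n = 4 each), with a log2 difference of 0.12 and an interval of -0.21 to 0.45 (limma, adjusted p = 0.687). Without Trib1 hi 3 the difference was 0.24 (adjusted p = 0.0307), without both high-background arrays 0.18 (adjusted p = 0.00462), and after quantile normalization 0.11 (adjusted p = 5.34e-05).

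Ftl1, the light chain that helps the mineral core form, read 24855, 25798, 17943 and 25899 on Trib1 hi arrays, against 20611, 23553, 22218 and 21852 on Trib1 null arrays. As for Fth1, Trib1 hi 1, 2 and 4 lay above every Trib1 null array and Trib1 hi 3 below them all. Its log2 difference was 0.08 with an interval of -0.25 to 0.41 (adjusted p = 0.786), 0.21 without Trib1 hi 3 (adjusted p = 0.0162), 0.18 without both high-background arrays (adjusted p = 0.00424) and 0.07 after quantile normalization (adjusted p = 0.0409).

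Ncoa4, the receptor that delivers ferritin to autophagosomes and so frees its iron, read 8909, 8574, 6419 and 8885 on Trib1 hi arrays, against 6519, 7543, 7241 and 7327 on Trib1 null arrays. Again the other 3 Trib1 hi arrays lay above every Trib1 null array, while Trib1 hi 3 was lowest of all. The means were 8197 ± 1195 in Trib1 hi and 7157 ± 444 in Trib1 null (SD, n = 4 each), a log2 difference of 0.18 with an interval of -0.04 to 0.41 (adjusted p = 0.25). The difference was 0.30 without Trib1 hi 3 (adjusted p = 0.00244) and 0.25 without both high-background arrays (adjusted p = 0.000460). It was 0.07 after quantile normalization (adjusted p = 0.0639) and 0.06 when both probe sets were averaged (adjusted p = 0.747). Its other probe set read 1245 to 1420.1 in Trib1 hi and 1301 to 1495 in Trib1 null, a difference of -0.07 (adjusted p = 0.781), so the 2 probe sets of Ncoa4 differed in sign and neither was called with all arrays.

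**Figure D2:**
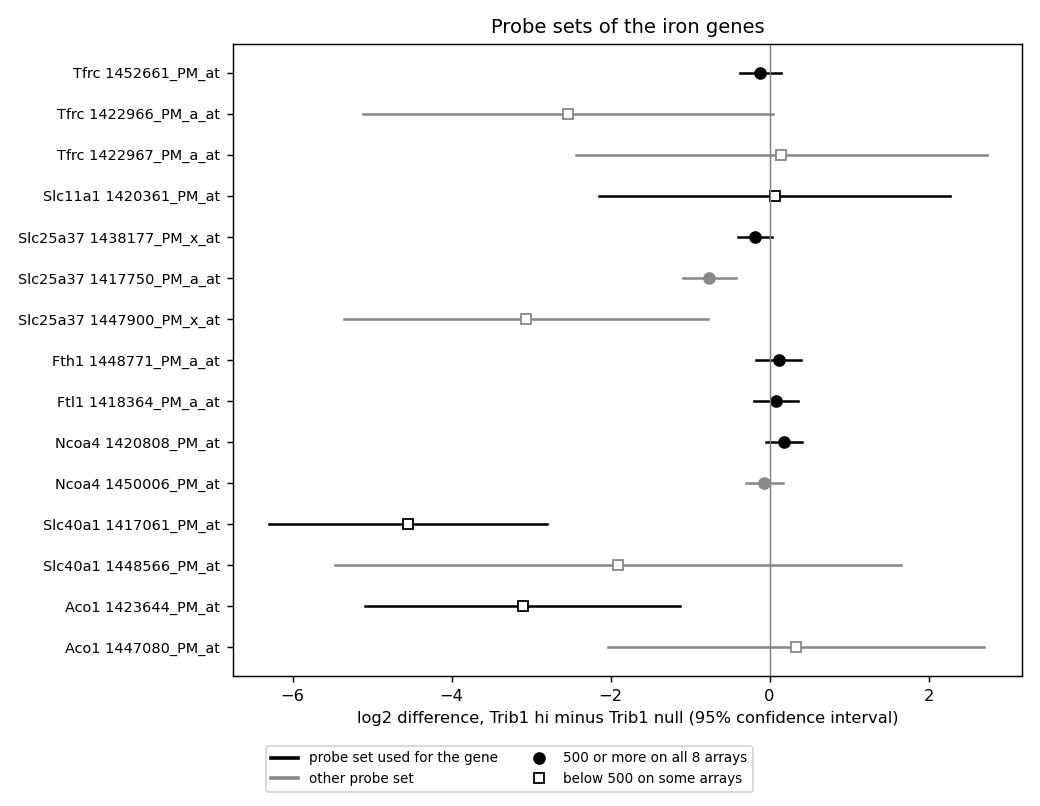
Fitted log2 difference, Trib1 hi minus Trib1 null, with its 95% interval, for each of the 15 single-symbol probe sets of the 8 genes; black marks the probe set used for the gene, grey the others, and open squares probe sets below 500 on some arrays. The intervals of the bright probe sets are narrow and lie near 0 except that of the second Slc25a37 probe set at -0.76, while the open squares of Slc40a1 (-4.55) and Aco1 (-3.11) carry wide intervals.

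Slc40a1 encodes ferroportin, the exporter that hepcidin closes. It read 11.5, 12.5, 337 and 9.96 on Trib1 hi arrays, against 799, 758, 625 and 734 on Trib1 null arrays. All Trib1 hi arrays lay below 500 and all Trib1 null arrays above it, with no overlap, also with Trib1 hi 3 included. On Trib1 hi arrays the signal was near that of the background control (11.4 to 379), and on Trib1 null arrays it was above it (149 to 335). The means were 92.6 ± 163 in Trib1 hi and 729 ± 74.5 in Trib1 null (SD, n = 4 each). The gene was at least 1.45-fold lower in Trib1 hi, with a fitted log2 difference of -4.55 and an interval of -6.34 to -2.76 (limma, adjusted p = 9.97e-05). Without Trib1 hi 3 the fitted difference was -5.70 (adjusted p = 3.85e-06), and after quantile normalization -2.26 (adjusted p = 3.65e-09).

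The Slc40a1 call can be set beside genes of the same brightness on the Trib1 null arrays. Of 899 genes between 500 and 1000 on all Trib1 null arrays, 43.0% were called lower in Trib1 hi, with a median log2 difference of -0.40. This band was chosen by the Trib1 null arrays alone, which favours genes lower in Trib1 hi, so its share is not a neutral reference. In that band 26 genes, Slc40a1 among them, had a fitted difference at least as low as that of Slc40a1. The bound of 1.45-fold rests on signals raised to 500, so it cannot be set against the dap difference given for Slc25a37. On the scale of that difference (-0.84) the fitted Slc40a1 difference was -4.55, from Trib1 hi signals near the background control. The part of the dap difference in the Slc40a1 result was not tested. The other Slc40a1 probe set read 6.80, 6.59, 166 and 6.08 on Trib1 hi arrays, against 186, 7.89, 119 and 103 on Trib1 null arrays. These overlapped, the difference of -1.90 did not pass (adjusted p = 0.517), and with the mean of both probe sets the gene was no longer called (-3.23, adjusted p = 0.0627). Over all alternatives its adjusted p ran from 3.65e-09 to 0.0627. Ferroportin is abundant in iron-recycling macrophages. Of 11 macrophage markers, 2 reached 500 on all Trib1 hi arrays and 3 on all Trib1 null arrays, with summed levels of 7472 to 9503 in Trib1 hi and 8889 to 9931 in Trib1 null. Among them Adgre1 averaged 5964 in Trib1 hi and 4111 in Trib1 null, 1.44-fold higher (adjusted p = 9.05e-05), and Cd68 averaged 2760.2 in Trib1 hi and 4207 in Trib1 null, 1.53-fold lower (adjusted p = 4.09e-06). Vcam1 read 3.62 to 110 in Trib1 hi and 1024 to 1221 in Trib1 null, while the macrophage receptors Cd163 and Mertk were at 15.8 or below on every array. The part of these cells in the result was not tested, and fewer cells of a type cannot be told apart from less RNA per cell.

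Aco1 encodes the cytosolic aconitase that becomes iron regulatory protein 1 when its iron-sulphur cluster is lost. It read 16.0, 13.2, 323 and 22.0 on Trib1 hi arrays, against 370, 276, 319 and 393 on Trib1 null arrays. Trib1 hi 3 lay among the Trib1 null arrays and the other 3 Trib1 hi arrays far below them. The fitted log2 difference was -3.11 with an interval of -5.19 to -1.03 (adjusted p = 0.0182), and no fold is given since no array reached 500. The background control was high on the same arrays, at 12.2, 11.4, 379 and 15.1 in Trib1 hi and 335, 149, 264 and 207 in Trib1 null, and its part in the Aco1 call was not tested. With signals raised to 500 the difference was 0.00 (adjusted p = 1.00), with its 2 probe sets averaged -1.39 (adjusted p = 0.497), without the variance trend the adjusted p was 0.0689, and without Trib1 null 1, 3 or 4 it was 0.0610, 0.0718 or 0.0935. The other probe set of Aco1 read 4.54 to 90.8 in Trib1 hi and 3.63 to 43.2 in Trib1 null.

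**Figure D3:**
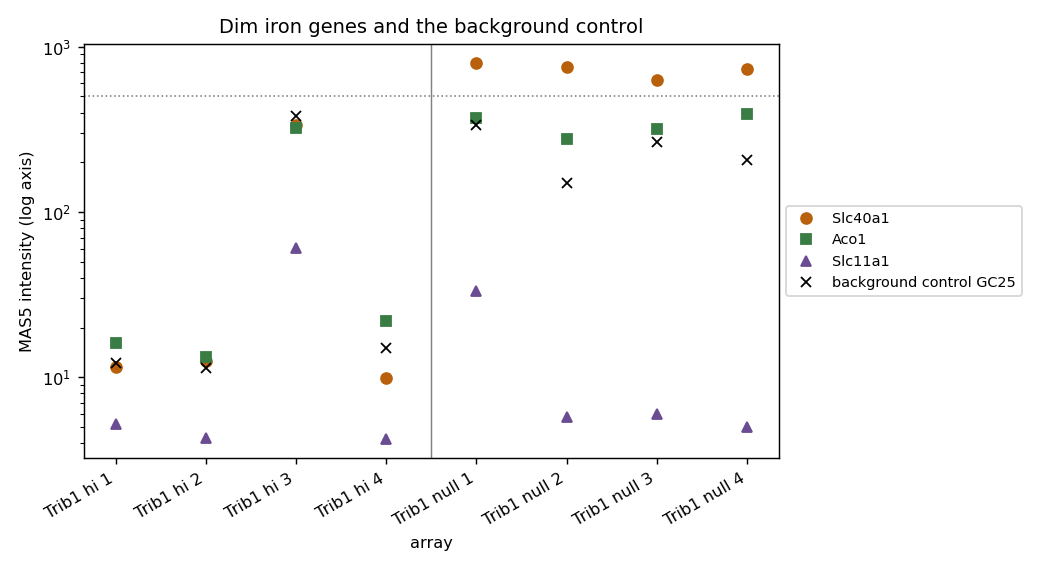
MAS5 intensity (log axis) of the dim iron genes Slc40a1, Aco1 and Slc11a1 and of the background control on each array, with the Trib1 hi arrays left of the Trib1 null arrays and the dotted line at 500. Both Aco1 and Slc40a1 lie near the control on the Trib1 hi arrays. Aco1 stays under the line on all 8 arrays, whereas Slc40a1 lies above the line on all 4 Trib1 null arrays and below it on all 4 Trib1 hi arrays.

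A wider set of 103 genes of iron handling, chosen with earlier results of these data known, was described by function. Of these, 92 were on the array and 80 were tested: 11 rose, 15 fell and 54 did not pass, with a median log2 difference of 0.06. By the same test 11.1% of all genes rose and 19.7% fell, so the counts of 11 and 15 among 80 lie near the background. Without Trib1 hi 3, 22 rose and 20 fell, beside 17.1% and 31.0% of all genes. Without both high-background arrays, 23 rose and 20 fell, beside 21.8% and 32.0% of all genes. The counts of each list below stand beside the 11.1% and 19.7% of all genes given above, and no list was tested as a set. Among genes at 500 or above on all 8 arrays the shares were 25.9% higher and 25.8% lower. Up to 3 genes of each list are named, those with the largest fitted difference among called genes whose groups did not overlap.

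Among 19 genes of the transferrin cycle and other iron import, 2 rose, 2 fell and 15 did not pass, with a median of 0.08. Trf, transferrin itself, averaged 2323 ± 199.6 in Trib1 hi and 3845 ± 196 in Trib1 null (SD, n = 4 each), 1.66-fold lower (adjusted p = 1.13e-07). Trf lies near the added controls given below for Nfe2l2, and the part of their differences was not tested. Lcn2, the siderophore-binding lipocalin of neutrophil granules, was 1.68-fold lower, at 10252 ± 1694 in Trib1 hi and 17070.2 ± 1632 in Trib1 null (SD, n = 4 each, adjusted p = 3.78e-05). Lcn2 is itself one of 9 measured neutrophil markers, whose summed level was 25386 to 36405 in Trib1 hi and 98944 to 122699 in Trib1 null. Of these markers 4 reached 500 on all Trib1 hi arrays and 5 on all Trib1 null arrays. Another 4 (Ltf, Camp, Mmp8 and Mmp9) stayed below 500 on every array. The part of such cells in the Lcn2 result was not tested. Slc39a8, a zinc transporter that also carries iron, read 142, 156, 626 and 268 in Trib1 hi and 103, 4.91, 5.00 and 12.3 in Trib1 null, with an adjusted p of 0.0419 that 12 of its alternatives lost, and has no fold.

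Among 11 tested genes of iron chaperones, the hepcidin axis and ferroxidases, 1 rose and 1 fell, with a median of 0.14. Fbxl5, the iron-sensing ubiquitin ligase subunit that marks iron regulatory protein 2 for degradation, read 1077, 1064, 1344 and 1153 on Trib1 hi arrays, against 2549, 2861, 2380.3 and 2589 on Trib1 null arrays. The groups were far apart on every array, 2.24-fold lower in Trib1 hi, with a log2 difference of -1.16 and an interval of -1.38 to -0.95 (adjusted p = 8.17e-11). Its call held under all 18 alternatives run. The Trib1 null values of Fbxl5 lie near the added controls given below for Nfe2l2, and the part of their differences was not tested. Cul1, the cullin scaffold on which Fbxl5 and many other F-box proteins work, averaged 2486 ± 214 in Trib1 hi and 1873 ± 78.9 in Trib1 null, 1.32-fold higher (adjusted p = 0.00106).

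Among 10 regulators of ferritin, ferroportin and transferrin receptor mRNA, none rose, 2 fell and 8 did not pass, with a median of -0.16. Nfe2l2, the oxidative stress factor NRF2 that activates ferritin and ferroportin genes, averaged 3126 ± 267 in Trib1 hi and 4154 ± 245 in Trib1 null, 1.33-fold lower (adjusted p = 0.000676). Stat5b, a transcription factor downstream of IL-3, averaged 552 ± 131 in Trib1 hi and 924 ± 84.2 in Trib1 null, at least 1.65-fold lower (adjusted p = 0.000752). Averaging its probe sets ended that call (adjusted p = 0.168). The dap probe set nearest to the Nfe2l2 values averaged 2097 in Trib1 hi and 2963 in Trib1 null, a difference of -0.50. Of the added control bioD, one probe set averaged 3937 in Trib1 hi and 3793 in Trib1 null (0.03) and another 2170 in Trib1 hi and 1925 in Trib1 null (0.16). The part of such differences between controls in these results was not tested.

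Among 8 tested genes of haem uptake, breakdown and export, 2 rose and 3 fell, with a median of -0.13. Hp, haptoglobin, which binds free haemoglobin, read 272, 171, 578 and 424 on Trib1 hi arrays, against 2152, 2186, 2036 and 2038 on Trib1 null arrays. It was at least 4.05-fold lower in Trib1 hi (adjusted p = 8.11e-12). The Trib1 null values of Hp lie near the added controls given for Nfe2l2, and the part of their differences was not tested. Blvrb, a biliverdin reductase, was at least 1.90-fold lower, at 156 ± 205 in Trib1 hi and 958 ± 147 in Trib1 null (adjusted p = 1.60e-05). Its Trib1 null values lie in the range of the added controls given for Slc25a37, and the part of their differences was not tested. Hmox1, the haem oxygenase that frees iron from haem, read 9.71, 10.6, 241 and 7.91 in Trib1 hi and 532, 417, 499.6 and 418 in Trib1 null. It has no fold, and its call (adjusted p = 0.00248) was lost once signals were raised to 500 (adjusted p = 0.784). The 2 that rose, chosen here after their values were seen, carry haem itself. The haem exporter Flvcr1 averaged 1821 ± 153 in Trib1 hi and 1196 ± 90.1 in Trib1 null, 1.52-fold higher (adjusted p = 3.08e-05), and the lysosomal haem carrier Slc48a1 averaged 4089 ± 476 in Trib1 hi and 2575 ± 268 in Trib1 null, 1.59-fold higher (adjusted p = 2.33e-06).

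Among 17 tested genes of mitochondrial iron import and iron-sulphur assembly, 6 rose and 2 fell, with a median of 0.16. In this list 13 genes were at 500 or above on all 8 arrays. Of all genes that bright, 25.9% rose and 25.8% fell. Hspa9, the mitochondrial HSP70 (mortalin) that hands clusters on, read 10571, 10639.6, 7551 and 10111 on Trib1 hi arrays, against 3294, 3471, 3515 and 3579 on Trib1 null arrays. It was 2.78-fold higher in Trib1 hi (adjusted p = 4.54e-13). Cisd1, the outer-membrane cluster protein mitoNEET, averaged 4199 ± 467 in Trib1 hi and 1640.5 ± 99.4 in Trib1 null, 2.55-fold higher (adjusted p = 5.46e-13). The calls of Hspa9 and Cisd1 held under all 18 alternatives run for each. Abcb10, a mitochondrial transporter that binds mitoferrin 1 in erythroid cells, averaged 567 ± 190.4 in Trib1 hi and 1077 ± 42.6 in Trib1 null, at least 1.79-fold lower (adjusted p = 6.45e-05), and averaging its probe sets gave an adjusted p of 0.0823. Abcb10 lies in the intensity range of the added controls given for Slc25a37, and the part of their differences was not tested.

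Among 8 genes of cytosolic iron-sulphur assembly, none rose and 3 fell, with a median of 0.02. Ciao3, formerly Narfl, averaged 364 ± 178 in Trib1 hi and 1082 ± 35.9 in Trib1 null, at least 2.06-fold lower (adjusted p = 4.33e-07), but the average over its probe sets did not pass (adjusted p = 0.341). Nubp2, a scaffold ATPase of this pathway, averaged 1876 ± 156 in Trib1 hi and 2513 ± 234 in Trib1 null, 1.34-fold lower (adjusted p = 0.00105). The Trib1 null values of Ciao3 lie in the range of the added controls given for Slc25a37, and Nubp2 lies near those given for Nfe2l2. The part of the differences between these controls was not tested. Among 4 other mRNAs with an iron-responsive element, none passed. Cdc14a, a phosphatase named for having the highest mean signal among them, averaged 672 ± 220.3 in Trib1 hi and 663 ± 67.7 in Trib1 null (adjusted p = 0.938). Among 4 tested genes of ferritin turnover by autophagy, 2 fell and 2 did not pass, with a median of -1.48. The 2 that fell, Atg9a and Ulk1, were below 500 on every Trib1 hi array, so the median rests partly on dim signals. The 2 at 500 or above on all arrays did not pass: Tax1bp1 (-0.34, adjusted p = 0.0552) and Gabarapl2 (0.10, adjusted p = 0.501). Atg9a, an autophagosome membrane protein, read 10.1, 11.03, 242 and 9.76 in Trib1 hi and 549, 431, 479.8 and 516 in Trib1 null, with no fold, and its call (adjusted p = 0.00160) was lost once signals were raised to 500 (adjusted p = 0.521).

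**Figure D4:**
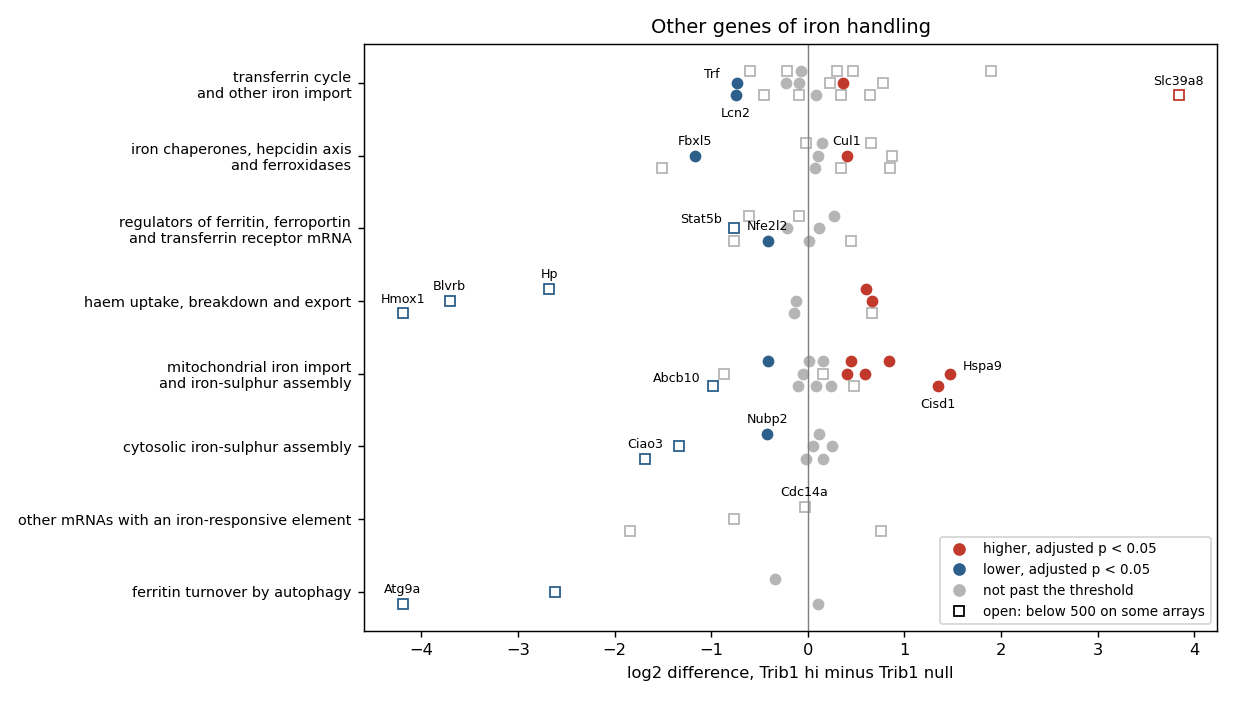
Fitted log2 difference, Trib1 hi minus Trib1 null, of the tested genes in 8 lists of iron handling, with red for higher, blue for lower and grey for not past the threshold, filled at 500 or above on all 8 arrays and open otherwise. The named genes are labelled, and among filled points Hspa9 and Cisd1 lie farthest to the right and Fbxl5 farthest to the left.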

How the data were processed

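RNA of 8 samples, 4 labelled Trib1 hi and 4 labelled Trib1 null, was read on 1-colour Affymetrix mouse arrays. The deposited values are linear intensities of 45141 probe sets, made with MAS5 per the submitters' processing notes; the sources used here give neither its version nor a genome build. The 2% trimmed mean of each array was 500.1 to 500.2, the 90th percentile was 1808 to 1985, and 17.7% to 23.2% of probe sets exceeded 500. The number of arrays limits the precision. No detection calls were used.

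Of 29449 probe sets in the platform annotation, 28898 had 1 symbol and 551 several. For each of 17097 genes the probe set with the highest mean over the arrays was kept. limma 3.58.1 in R 4.3.3 (lmFit, eBayes with trend) was run two-sided on log2(intensity + 2.71), the pseudocount being the 25th percentile of all values, for the 12250 genes whose mean exceeded 3.01 (40th percentile of the probe sets). Values were Benjamini-Hochberg adjusted over all tested genes, with a threshold of 0.05. Differences are on this scale, where the pseudocount shrinks those of the lowest signals and the background of an array enters those of dim genes. Probe sets of one gene were also tested each on its own. The script was tested on simulated data. The limit of 500 for folds was chosen after earlier results were seen.

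The genes, the lists of related and marker genes and the tests were chosen with earlier results of these data known. All 10 listed genes are named, and of each further list up to 3 called genes with the largest fitted difference without overlap, or the gene with the highest mean signal where none passed. Same-numbered arrays showed no common pairing: their deviations from the group means correlated at -0.30, 0.31, -0.08 and 0.02 over 5326 genes. These values cannot exclude a pairing, since Trib1 hi 3 correlated at 0.35 with the differently numbered Trib1 null 1.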

Additional observations from a re-analysis of the deposited data

Results flagged for a closer look

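Each group of 4 arrays was searched for an array far from the other 3, for the 8 iron genes and 17 named genes, 50 groups in all, of which chance would pick about 1 in 20. An array stood out in 12 groups, 11 times Trib1 hi 3. On that array bright genes read low: Fth1 17745 against 24737 to 25993 on the other Trib1 hi arrays, Ftl1 17943 against 24855 to 25899, Ncoa4 6419 against 8574 to 8909, Nfe2l2 2728 against 3214 to 3286, Hspa9 7551 against 10111 to 10639.6, and Cisd1 3504 against 4349 to 4491. Dim genes read high on it: Slc40a1 337 against 9.96 to 12.5, Slc11a1 60.3 against 4.21 to 5.22, Aco1 323 against 13.2 to 22.0, Hmox1 241 against 7.91 to 10.6, and Atg9a 242 against 9.76 to 11.03. In the Trib1 null group, Slc11a1 read 33.3 on Trib1 null 1 against 5.01 to 5.97 on the others.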

How the results depend on the processing

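Counts among the 8 iron genes were 0 higher and 2 lower. Quantile normalization gave 2 higher and 5 lower, leaving out both high-background arrays 3 higher and 3 lower, and a floor of 500, a mean signal of 500 in a group, the mean of probe sets and no variance trend each gave 1 lower, which was Slc25a37 with the mean of probe sets and Slc40a1 in the others. Leaving out 1 array at a time gave 0 to 3 higher, with 3 without Trib1 hi 3, and 1 to 2 lower, with 1 without Trib1 null 1, 3 or 4. Of the 80 related genes tested, 11 were higher, against 26 under quantile normalization, 7 with the mean of probe sets, 23 without both arrays, and 10 to 22 with 1 array left out. Over all genes, 1363 were higher, against 3341 under quantile normalization, 725 with the mean of probe sets, 2665 without both arrays and 1155 to 2080 with 1 array left out. The 2409 lower became 1595 with the floor, 1317 with the mean of probe sets, 1274 without the trend, 3906 without both arrays and 1962 to 3774 with 1 array left out. The Tfrc difference ran from -0.20 to 0.039 with 1 array left out and was -0.84 with the mean of probe sets. That of Slc11a1 was -0.82 under quantile normalization, -0.19 without both arrays and -0.72 to 0.59 with 1 array left out. That of Cdc14a was 0.36 under quantile normalization, 0.018 with the floor, 0.19 with the mean of probe sets and -0.22 to 0.16 with 1 array left out. The causes were not tested. With the replicate number as a block, the iron genes gave 0 higher and 2 lower, the related genes 10 higher and 15 lower, and all genes 1284 higher and 2346 lower; of the named genes, the block ended the call of Slc39a8 only (adjusted p = 0.0832). The fall of the second Slc25a37 probe set was called in all 16 alternatives run (-0.89 to -0.49). Signals under 500 limit what can be said of Slc40a1, Aco1 and Slc11a1.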

Other observations

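Several further genes of the related lists passed the test and were picked after their values were seen. In mitochondria, Cisd2, the relative of Cisd1 in the endoplasmic reticulum and outer membrane, averaged 2991 ± 246 in Trib1 hi and 1662 ± 62.6 in Trib1 null (SD, n = 4 each), 1.80-fold higher (limma, adjusted p = 1.03e-08). Bola3, which helps load clusters onto late acceptors, was 1.51-fold higher (adjusted p = 4.67e-06), Fdx1, a ferredoxin, 1.36-fold higher (adjusted p = 0.00108), and Glrx5, a cluster-carrying glutaredoxin, 1.32-fold higher (adjusted p = 0.00201). Isca2, a late-acting cluster assembly protein, averaged 1931 ± 109.9 in Trib1 hi and 2569 ± 114 in Trib1 null, 1.33-fold lower (adjusted p = 0.000664). Isca2 lies near the added controls given for Nfe2l2, and the part of their differences was not tested.

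Ndfip2, an adaptor of ubiquitin ligases that act on the metal transporter DMT1, averaged 2943 ± 289.6 in Trib1 hi and 2277 ± 72.7 in Trib1 null, 1.29-fold higher (adjusted p = 0.00270). Mms19, of the cytosolic cluster targeting complex, averaged 266 ± 218 in Trib1 hi and 485 ± 53.3 in Trib1 null (adjusted p = 0.0297), and Ulk1, the kinase that starts autophagy, averaged 125 ± 168 in Trib1 hi and 363 ± 95.4 in Trib1 null (adjusted p = 0.0226). Both had arrays below 500 in each group, so no fold is given.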
